A study of Rattus norvegicus with 3 samples.

Results

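The DN-labelled cells were the 390 of 8546 annotated cells of a rat thymocyte library whose final label in the authors' cell table is DN, the abbreviation for double-negative thymocytes. All 390 took this label from the column of projected labels, and none from the first clustering alone. They were set beside the 848 cells labelled DP-P and the 5202 labelled DP, and, where a level outside the main lineage was needed, the 128 cells labelled gdT and the 170 labelled B+myeloid. All cells came from thymi of Lewis rats, an inbred strain, at 8 weeks of age, released with collagenase D and DNase I and sequenced as 1 droplet library (10x Genomics). A section of a thymus from the same strain and age, read on a Stereo-seq chip, carries the same labels per bin. The labels give no treatment and no genotype other than the strain, and do not say how many animals were pooled. With 1 library there was no replicate check, so every interval printed here is a 95% interval for counting error only, and no p-value was computed.

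Double-negative thymocytes are the earliest T-lineage cells of the thymus, named for lacking the coreceptors CD4 and CD8. Their first members are known to carry the stem cell factor receptor Kit. Later ones carry the interleukin receptor chain Il2ra (CD25), respond to Notch ligands and rearrange the T-cell receptor beta chain. A productive beta chain pairs with the surrogate alpha chain Ptcra in the pre-T-cell receptor, and the cells then divide, switch on CD8 and CD4 and become double-positive (DP). The suffix in DP-P is not explained in the sources used here.

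The labels were given by the authors from the expression of these same cells, so a difference between labels describes the labelled cells and is not a test of them. Levels are unique molecular identifiers (UMIs) summed over the cells of a label per 1000000 UMIs of that label (CPM). The DN-labelled cells held 10832406 UMIs, the DP-P cells 17104660 and the DP cells 18914942. A DN-labelled cell had a median of 23190 UMIs (20417 to 26795; lowest cell 1750, highest 107058), against 15439 in DP-P, 3205.5 in DP, 19804 in gdT and 11507 in B+myeloid. The median was thus 1.502 times that of DP-P and 7.23 times that of DP. At a common depth of 2000 UMIs per cell this order turned for the number of genes detected: the median was 1072 genes in 389 DN-labelled cells, 1110 in 846 DP-P cells and 1154 in 4877 DP cells (1, 2 and 325 shallower cells were left out). The mitochondrial ribosomal RNA share, which is what the deposited percentage counts, had a median of 1.34% in DN, 1.72% in DP-P and 5.22% in DP. Of the 8574 barcodes, 38 also occurred in the stromal library, none of them a DN-labelled cell.

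The markers that define the label in textbooks were only in part present. Ptcra, the pre-T-cell receptor chain, stood at 272 CPM in DN (262 to 282), 265 in DP-P (257 to 273), 207 in DP (201 to 214), 247 in gdT and 44.8 in B+myeloid. Ptcra therefore did not set DN-labelled cells apart from DP-P cells: the ratio was 1.03 (0.979 to 1.07). Il2ra stood at 3.51 CPM in DN (2.48 to 4.82), 8.77 in DP-P (7.42 to 10.3) and 67.5 in DP (63.8 to 71.3), which is 19.2-fold lower in DN than in DP (13.9 to 27.3). Only 27 of the 390 cells (6.92%, 4.61 to 9.91) had an Il2ra UMI at full depth, and at 2000 UMIs 0.257% did (0.00651 to 1.42), against 12.5% of DP cells. In B+myeloid cells, at a median of 11507 UMIs, 1.18% had an Il2ra UMI at full depth. At 2000 UMIs 0 of 152 did, which allows a share of up to 2.40%. With 1 DN-labelled cell and 0 B+myeloid cells positive, the shares at equal depth could not be told apart. Of the 27 cells with Il2ra at full depth, 11 also had a Kit UMI, and all 11 lay in cluster DN. Kit stood at 14.3 CPM in DN (12.1 to 16.7), 10.5 in DP-P (8.99 to 12.1), 1.32 in DP (0.855 to 1.95), 47.4 in gdT and 7.53 in B+myeloid. Kit was 10.8-fold higher in DN than in DP (7.07 to 17.2), yet its level in the gdT label was the highest of the 5.

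**Figure D1:**
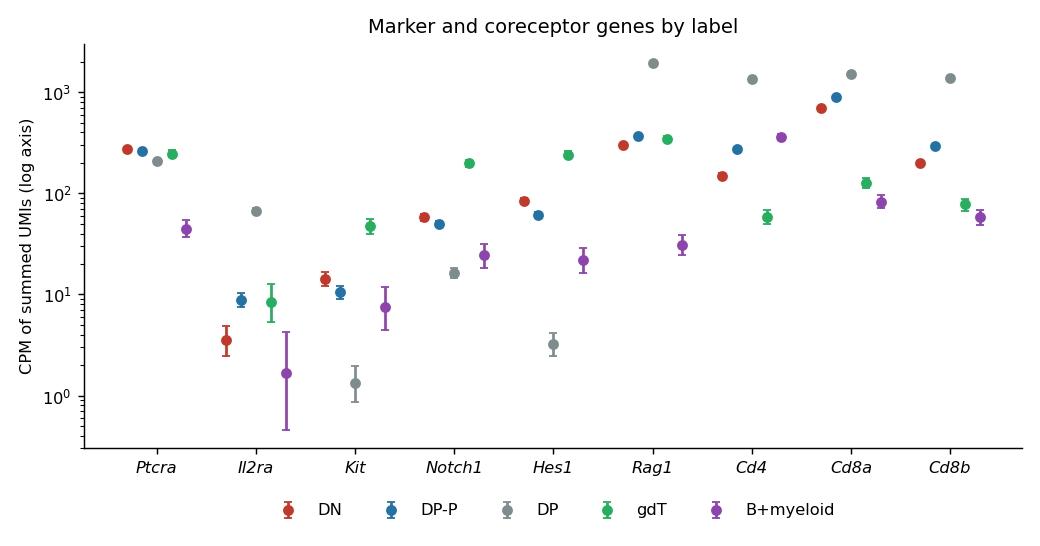
CPM of summed UMIs on a log axis for 9 genes in 5 labels, with exact Poisson 95% intervals (counting error only, 1 library). Il2ra is lowest in the lineage in the DN label (3.51 CPM against 67.5 in DP), and Cd4, Cd8a and Cd8b in DN lie below DP but above gdT.

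The coreceptor genes were low for the lineage but not absent. Cd4 stood at 150 CPM in DN (143 to 157), 274 in DP-P, 1350 in DP, 58.8 in gdT and 358 in B+myeloid, a label whose myeloid cells are known to carry Cd4 in rats. Cd8a stood at 702 CPM in DN, 892 in DP-P, 1497 in DP, 126 in gdT and 82.8 in B+myeloid, and Cd8b at 198, 295, 1372, 77.5 and 58.1. Deep cells weigh more in these sums: the 192 DN-labelled cells of cluster DN held 7827474 of the label's 10832406 UMIs. By the mean of the cells' CPM, the ratio of DN over DP was 0.169 for Cd4 and 0.219 for Cd8b. Those were 1.52 and 1.51 times the ratios from sums. At full depth 288 of the 390 DN-labelled cells (73.8%, 69.2 to 78.1) had UMIs of both Cd4 and a Cd8 chain, and 10 (2.56%, 1.24 to 4.66) had neither. At 2000 UMIs 31.6% had both (27.03 to 36.5), 45.8% had Cd8 without Cd4, 1.54% had Cd4 without Cd8 and 21.1% had neither (17.1 to 25.5). The same shares with both were 41.5% in DP-P, 89.9% in DP, 11.7% in gdT and 13.2% in B+myeloid. Those with neither were 11.7% in DP-P, 0.144% in DP, 68.0% in gdT and 55.3% in B+myeloid. Most of the cells thus had coreceptor transcripts, against the name of the label, though the share with neither was higher than in DP-P and DP. On Il2ra they went against the label as well, and they are called DN-labelled cells here. Transcripts do not show what protein was on the cell surface, and free RNA in the droplets adds UMIs to every cell. Its part in these shares was not tested.

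Genes of the earliest progenitors were low. The 16 genes of that list summed to 31.3 CPM in DN (28.1 to 34.8), 26.5 in DP-P, 18.4 in DP, 205 in gdT and 1319 in B+myeloid. Of the 16, 5 had no UMI in DN: the stem cell antigen Cd34 and the transcription factor genes Spi1, Lmo2, Gfi1b and Tal1. Flt3, a cytokine receptor of early progenitors, stood at 0.0923 CPM, which is 1 UMI in 390 cells. Il7r, the receptor for interleukin 7, stood at 15.1 CPM in DN, 1.27 in DP and 243 in gdT. Genes of other lineages were low as well. B-cell genes summed to 44.8 CPM in DN (10 genes, 6 at 0) against 5123 in B+myeloid. Myeloid and dendritic genes summed to 143 (19 genes, 3 at 0) against 39810. Stromal genes summed to 22.3 (15 genes, 11 at 0) and erythroid genes to 1.02 (10 genes, 8 at 0). Natural killer genes summed to 20.9 (15 genes, 7 at 0), against 298 in gdT and 3054 in B+myeloid. Across DN, DP-P and DP those sums ran from 39.7 to 47.2 for B-cell genes and from 95.6 to 143 for myeloid genes. The constant-region genes of the T-cell receptor are not named in the feature table and were not used here.

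The DN-labelled cells came from several of the authors' first clusters. In that clustering 192 of them (49.2%) lay in a cluster also called DN, 151 (38.7%) in a cluster called DP-P2, 36 (9.23%) in DP-P3, 8 in DP-P1, 2 in DP1 and 1 in Mature SP. Seen from the clusters, 151 of the 156 cells of DP-P2 (96.8%, 92.7 to 98.95) were labelled DN, while the 510 cells of cluster DN were divided into 192 labelled DN (37.6%, 33.4 to 42.0), 199 labelled DP-P, 111 labelled gdT, 3 labelled DP and 5 with another label. The final label thus joined cells of clusters DN and DP-P2 and divided cluster DN. Median depth differed between the groups it joined: 37879 UMIs in cluster DN, 11832 in DP-P2 and 18239 in DP-P3.

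**Figure D2:**
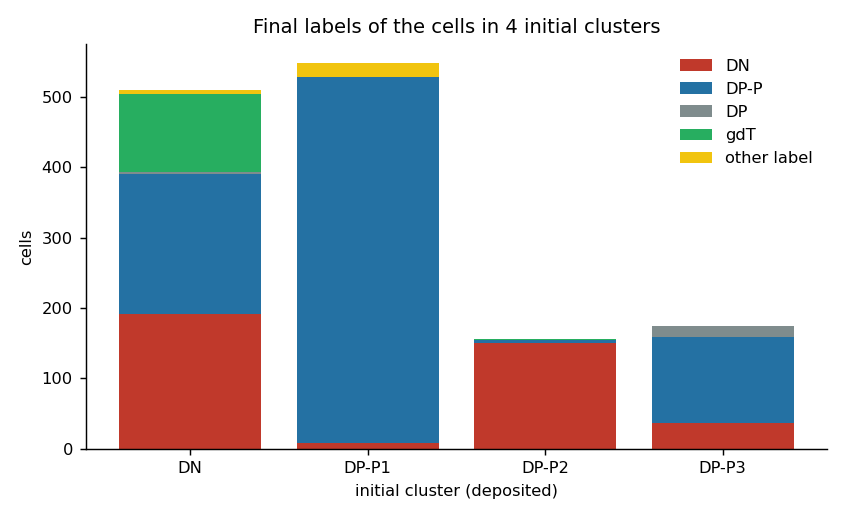
Number of cells in 4 of the authors' first clusters, stacked by final label (1 library). DP-P2 is almost wholly labelled DN (151 of 156 cells), and cluster DN is shared by DN (192), DP-P (199) and gdT (111).

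Relative to DP, the DN-labelled cells were marked by genes of DNA replication, division and growth. Of 10244 genes with at least 100 UMIs over both labels, 1807 were at least 2-fold higher in DN (17.6%) and 2692 at least 2-fold lower (26.3%), and the median ratio over all of them was 0.831, a shift of -0.27 on the log2 scale. Of the S phase list, which holds helicase, clamp and nucleotide synthesis genes, 28 of 29 were at least 2-fold higher and 0 lower (median ratio 19.2). Of the G2 and M phase list, spindle, kinase and cyclin genes, 30 of 31 were higher and 0 lower (median 22.2). Of 29 tested growth and biosynthesis genes 23 were higher and 0 lower (median 5.33). Cdt1 and Cdc6, which load the replicative helicase at origins, led the genes with a UMI in at least 25% of DN-labelled cells, at 147-fold (77.3 to 324) and 133-fold (79.1 to 245). They stood at 70.2 and 98.7 CPM in DN and at 0.476 and 0.74 in DP. Ran, the GTPase of nuclear transport, was 12.6-fold higher (1395 against 110 CPM), and Cad, which starts pyrimidine synthesis, 10.1-fold (23.0 against 2.27 CPM).

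Genes of the double-positive programme were lower in DN than in DP: 10 of 10 tested were at least 2-fold lower and 0 higher (median ratio 0.269). Ccr9, a chemokine receptor of cortical thymocytes, stood at 35.1 against 499 CPM (14.2-fold lower, 12.8 to 15.8). Rag1, which with Rag2 cuts antigen receptor genes, was 6.54-fold lower (6.31 to 6.78; 298 against 1952 CPM), Rag2 2.77-fold and Dntt, the terminal transferase, 2.74-fold lower. In the recombination and repair list 6 of 14 were lower and 3 higher. Lig4, the ligase of end joining, was 8.46-fold lower, while the higher members were the chromatin proteins Hmgb2 (9.10-fold) and Hmgb1 (3.95-fold) and Xrcc6, a Ku subunit (5.08-fold). Outside the lists, the lowest ratio by the same rule of cells was that of Ccl4, a chemokine, at 5.82 against 195 CPM (33.6-fold lower, 26.2 to 43.8), followed by Pde6c, Carmil1, Nebl, Slco3a1 and the glutamate receptor gene Gria3 (23.3-fold).

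Receptor signalling genes were lower in DN than in DP more often than the 26.3% of all genes. Of 21 tested pre-T-cell receptor and proximal signalling genes 12 were at least 2-fold lower than in DP and 2 higher (median 0.393). Cd5, a negative regulator, was 5.35-fold lower, and the kinases Lck and Zap70 2.97-fold and 2.92-fold lower. The higher members were the adhesion receptor Cd2 (237 against 67.8 CPM, 3.50-fold) and the kinase Syk (7.75 against 2.27 CPM, 3.41-fold). The commitment and Notch lists lay near the shares of all genes. Of 18 tested commitment factors 6 were lower, among them Tcf12 (3.99-fold) and Satb1 (3.57-fold), and 2 were higher, Runx3 (2.58-fold) and Tcf3 (2.32-fold). Tcf7 and Bcl11b, needed for T-lineage commitment, were within 2-fold at 1123 against 2056 CPM and 611 against 1109 CPM. In the Notch list 4 of 15 were higher and 4 lower (median 1.07). The higher ones were the target Hes1 (84.7 against 3.23 CPM, 26.3-fold, 20.3 to 34.6), Myc (6.84-fold), the receptor Notch1 (3.57-fold) and the feedback target Nrarp (2.65-fold), and Il2ra was among the lower ones. Notch1 and Hes1 were higher still in the gdT label, at 198 and 241 CPM.

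Genes that admit cells to the cycle, receive cytokines or hold cells in place made up the remaining lists, to be read against 17.6% of all genes higher and 26.3% lower than in DP. Several of these lists, such as the beta-selection and stress genes, lay near those shares. Of 11 tested G1 cyclins, kinases and inhibitors 5 were at least 2-fold higher in DN than in DP and 2 lower. The D-type cyclin Ccnd2 stood at 15.5 CPM in DN, 3.80 in DP-P, 0.317 in DP and 94.4 in gdT (48.9-fold over DP, 22.0 to 135), and its partner kinase Cdk4 was 6.10-fold higher than in DP. The inhibitors did not go one way: Cdkn1b was 3.56-fold lower, Cdkn2d 3.97-fold lower and Cdkn2c 2.65-fold higher. Of 15 cytokine receptor and signalling genes 6 were lower and 2 higher. The 2 were Il7r and Kit, and the lower ones took in Il2ra, Il4r (5.43-fold), the kinase Jak1 (4.10-fold) and the transcription factor Stat5b (3.79-fold). Of 13 chemokine receptor and adhesion genes 9 were lower and 1, the integrin chain Itgae, was higher (2.05-fold). Plxnd1, a semaphorin receptor that guides thymocytes, was 8.06-fold lower and the integrin chain Itga6 6.22-fold lower. In the list of BCL2 family and p53 genes 5 of 13 were lower and 1 higher (median 0.874). The survival gene Bcl2l1 stood at 59.8 against 266 CPM (4.44-fold lower). In the beta-selection list 2 of 11 were lower, Cd5 and Cd27, and 2 higher, the transferrin receptor Tfrc (5.83-fold) and the amino acid transporter Slc7a5 (4.57-fold). Stress and handling genes were mixed, with 2 of 8 higher (Fosb 8.89-fold, Fos 3.13-fold) and 3 lower.

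Fewer genes separated DN from DP-P, and among the lists the G2 and M phase genes differed most often. Of 9774 genes tested, 171 were at least 2-fold higher in DN (1.75%) and 287 at least 2-fold lower (2.94%), with a median ratio of 0.990. These and the ratios over DP share the DN-labelled cells. In the S phase list 4 of 29 were higher and 0 lower (median 1.27). In the G2 and M phase list 0 were higher and 20 of 31 lower (median 0.393). In the growth list 0 of 30 passed in either direction, with a median of 1.56. The commitment list had 0 of 18 past 2-fold (median 0.857) and the list of coreceptors and DP genes 0 of 10 (median 0.771). In the Notch list 0 of 15 were higher than in DP-P and 1 lower (median 1.14).

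Ung, the uracil DNA glycosylase that removes uracil from newly made DNA, had the largest ratio among the genes that led this comparison: 83.3 CPM in DN against 13.2 in DP-P (6.30-fold, 5.44 to 7.32), with a UMI in 70.3% of DN and 15.3% of DP-P cells. Hells, a chromatin remodeller, was 2.42-fold higher (428 against 177 CPM), Cdc6 2.31-fold (98.7 against 42.7 CPM) and Gins2, part of the replicative helicase, 2.20-fold (47.5 against 21.6 CPM). Not all of the list went the same way. Pcna, the sliding clamp, stood at 424 against 468 CPM, Clspn at 156 against 162, and Rrm2, a ribonucleotide reductase subunit, at 114 against 192. Behind Ung came genes outside the cell cycle lists, among them the host RNA Snhg4 (3.07-fold), Gpatch4 (2.90-fold), the RNase P subunit Rpp38 (2.87-fold), Pprc1 (2.78-fold) and the RNA polymerase III subunit Polr3e (2.75-fold).

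On the other side, Nusap1, a spindle protein, stood at 96.4 CPM in DN and 506 in DP-P (5.25-fold lower, 4.92 to 5.60). The spindle motor Kif11 was 4.30-fold lower, the mitotic kinase Plk1 4.03-fold, topoisomerase Top2a 3.88-fold (464 against 1798 CPM), Hmmr 3.51-fold and Cdk1 2.57-fold. The B-type cyclins did not pass: Ccnb1 stood at 177 against 257 CPM and Ccnb2 at 210 against 282. The lowest ratio of the leading genes was that of Mxd3, a partner of Max that is known from S phase, at 10.3 against 83.2 CPM (8.05-fold lower, 6.63 to 9.84). Histone genes filled the other 9 places of the 10 genes with the lowest ratios by the 25% rule. Over 43 tested histone genes, a set chosen after that was seen, 41 were at least 2-fold lower in DN, 0 higher, and the median was 4.80-fold lower. H1f2 stood at 436 against 2766 CPM and H4f3 at 388 against 2456. Summed, 45 histone genes made up 7178 CPM in DN, 36306 in DP-P and 3819 in DP. Most such transcripts are known to lack a poly(A) tail, and the libraries are of poly(A) RNA, so these levels cover only what was captured.

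A pair of members from each end of the cell cycle lists is shown by promoter, because E2F sites are known for G1/S genes and CHR elements for G2/M genes. The sequences are the 250 bases before the annotated start, from RefSeq on GRCr8, matched by symbol since the counts were made on mRatBN7.2. Ung and Dtl had the largest ratio of DN over DP-P among S phase genes whose window holds an E2F motif, and Top2a and Hmmr had the lowest among G2 and M genes whose window holds the CHR motif. Capitals mark TTTNGCGC or TTCCCGCC (E2F), TTTGAA (CHR) and CCAAT, on either strand, written along the gene's strand.
Ung: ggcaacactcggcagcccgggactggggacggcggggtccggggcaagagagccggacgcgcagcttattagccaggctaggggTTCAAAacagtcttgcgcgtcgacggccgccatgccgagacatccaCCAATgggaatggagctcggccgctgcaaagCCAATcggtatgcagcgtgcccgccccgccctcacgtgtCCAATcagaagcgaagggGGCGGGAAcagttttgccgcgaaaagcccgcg
Dtl: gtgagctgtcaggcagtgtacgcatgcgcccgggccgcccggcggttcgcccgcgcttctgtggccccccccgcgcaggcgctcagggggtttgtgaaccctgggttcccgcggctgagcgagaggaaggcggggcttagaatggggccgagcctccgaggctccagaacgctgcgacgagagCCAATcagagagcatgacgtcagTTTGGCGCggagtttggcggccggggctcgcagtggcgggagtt
Top2a: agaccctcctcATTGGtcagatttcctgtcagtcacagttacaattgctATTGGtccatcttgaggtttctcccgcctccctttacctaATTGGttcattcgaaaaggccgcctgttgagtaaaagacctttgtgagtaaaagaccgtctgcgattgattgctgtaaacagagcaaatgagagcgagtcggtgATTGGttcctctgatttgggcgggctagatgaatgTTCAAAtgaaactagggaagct
Hmmr: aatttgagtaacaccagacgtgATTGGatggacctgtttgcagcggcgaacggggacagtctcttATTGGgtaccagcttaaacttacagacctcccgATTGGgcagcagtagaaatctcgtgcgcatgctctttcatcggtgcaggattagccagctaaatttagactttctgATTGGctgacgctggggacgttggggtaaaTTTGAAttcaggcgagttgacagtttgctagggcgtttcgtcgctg
The windows lie at chr12:48154046-48154295, chr13:105685922-105686171, chr10:84473094-84473343 and chr10:25665216-25665465, all on the minus strand. In Ung the E2F motif ends 25 bases before the start, on the opposite strand, and in Dtl 37 bases before it. In Top2a and Hmmr the CHR motif ends 17 and 41 bases before the start, and each window holds 4 copies of CCAAT. The Ung window also holds TTTGAA and 3 copies of CCAAT. Of the 29 S phase genes 21 had a promoter entry, and 9 of these (42.9%) held an E2F motif, against 2 of 27 G2 and M genes (7.41%) and 2.73% of all 27457 promoters. TTTGAA was in 2 of the 21 S phase genes (9.52%), 15 of the 27 G2 and M genes (55.6%) and 16.0% of all promoters. CCAAT was in 57.1%, 77.8% and 34.3%. The motifs do not overlap each other in these 4 windows. A match of letters is a description of the window, not a shown binding site.

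Counted cell by cell, the DN label was skewed to the S phase list and DP-P to the G2 and M list. The summed histone set did not follow the S phase list: it stood at 7178 CPM in DN, 36306 in DP-P and 4128 in the DN-labelled cells of DP-P2. The phase of a cell was not tested. At 2000 UMIs the S phase genes gave a median of 9 UMIs per cell in DN (quartiles 6 and 13), 6 in DP-P (2 and 10.8), 0 in DP and 2 in gdT. The G2 and M genes gave 5 in DN (quartiles 3 and 9), 20 in DP-P (13 and 30) and 1 in DP. No DN-labelled cell was without an S phase UMI at this depth, whereas 55 of 846 DP-P cells and 2584 of 4877 DP cells were. More S phase than G2 and M UMIs were found in 266 of 389 DN-labelled cells (68.4%, 63.5 to 73.0) and in 154 of 846 DP-P cells (18.2%, 15.7 to 21.0). Growth genes gave 16 UMIs per cell in DN, 10 in DP-P and 4 in DP, and ribosomal protein genes 564, 429 and 291.

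**Figure D3:**
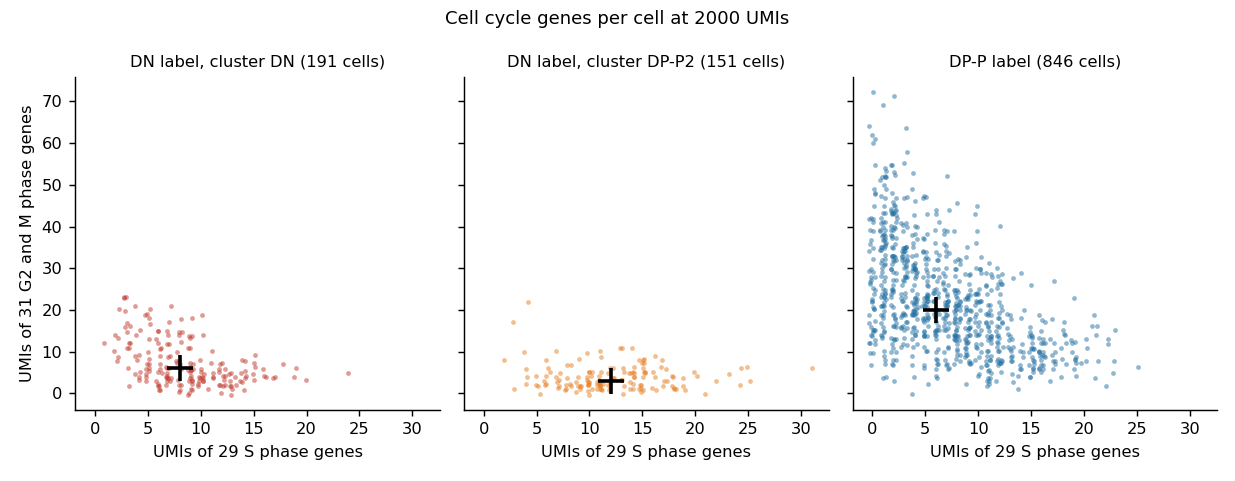
UMIs of the S phase list (x axis) and of the G2 and M phase list (y axis) per cell after thinning to 2000 UMIs, 1 point per cell with small random offsets, crosses at the medians. DN-labelled cells of cluster DN (medians 8 and 6) and of DP-P2 (12 and 3) stay low on the y axis, and DP-P cells (6 and 20) spread upward.

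Cluster DN was divided by the final label into DN and DP-P cells that could be compared directly. There, DN and DP-P cells had close depths (medians 37879 and 35471 UMIs). Of 8679 genes tested, 42 were at least 2-fold higher in the DN label (0.484%) and 157 lower (1.81%). The lower ones included 18 of 31 G2 and M genes (median ratio 0.478) and 41 of 43 histone genes (median 3.11-fold lower). Among genes with a UMI in at least 25% of the cells Ung again led, at 83.8 against 16.5 CPM (5.07-fold, 4.19 to 6.16), and was the sole S phase gene of 29 to pass. Tnfrsf9, a costimulatory receptor with a UMI in 18.2% of these cells, was 5.80-fold higher (22.9 against 3.95 CPM), the cyclin Ccnd2 2.69-fold (20.2 against 7.51 CPM), and the cell cycle inhibitors Cdkn2d and Cdkn2c were 2.63-fold and 2.60-fold lower. None of the tested genes of the Notch (14), commitment (18), pre-T-cell receptor (21), recombination (13) and coreceptor (10) lists was 2-fold apart. Notch1 stood at 68.6 and 76.7 CPM, Hes1 at 103 and 102, Cd4 at 57.2 and 76.6, Cd8a at 465 and 429 and Rag1 at 150 and 175. More S phase than G2 and M UMIs were found in 60.2% of the DN label there (52.9 to 67.2) and in 22.1% of the DP-P label (16.5 to 28.5).

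Within the DN label, more genes passed 2-fold between the cells of clusters DN and DP-P2 than between DN and DP-P. Of 7731 genes tested, 622 were at least 2-fold higher in cluster DN (8.05%) and 366 higher in DP-P2, that is lower in cluster DN (4.73%). Cluster DN held the growth genes: 20 of 28 were higher there and 0 lower (median ratio 2.64). Npm1, a nucleolar chaperone of ribosome assembly, stood at 2828 against 936 CPM, the glycolytic enzymes Ldha at 769 against 269 and Eno1 at 809 against 290, and Myc at 45.5 against 14.7. Notch1 (2.41-fold) and Hes1 (2.23-fold) were higher there too, as were Kit (18.8 against 2.37 CPM, 7.92-fold, 3.32 to 24.8) and Il7r (20.7 against 0.948 CPM). Il2ra was not: 3.32 CPM in cluster DN and 5.21 in DP-P2. The leading genes were Gpc5, a glypican (100 against 2.37 CPM, 42.4-fold, 18.1 to 131), Nrp2, a semaphorin receptor (45.2 against 1.90 CPM), and Hivep3 (44.7 against 1.90 CPM), and all 3 were higher still in gdT (239, 199 and 206 CPM).

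DP-P2 held the genes of the double-positive programme, 8 of 10 of which were at least 2-fold lower in cluster DN and 0 higher (median 0.316). Cd4 stood at 374 CPM in DP-P2 against 57.2 in cluster DN (6.54-fold, 5.82 to 7.36), Cd8b at 478 against 91.1 (5.25-fold), Cd8a at 1286 against 465 (2.76-fold), Rag1 at 702 against 150 (4.69-fold) and Ccr9 at 93.4 against 15.6 (5.99-fold). Slc7a11, a cystine transporter, was the leading gene on that side at 503 against 69.4 CPM. At 2000 UMIs 80 of the 151 DP-P2 cells had both Cd4 and a Cd8 chain (44.7% to 61.1%) and 8 had neither, against 13 of 191 (6.81%, 3.67 to 11.4) and 73 of 191 (38.2%, 31.3 to 45.5) in cluster DN. The part of the label that lay in cluster DN was thus nearer to its name on coreceptors, and still had Cd8 without Cd4 in 53.4% of cells. S phase genes were shared by both: 0 of 29 were 2-fold apart (median 0.727), with 12 UMIs per cell in DP-P2 and 8 in cluster DN. Of the 31 G2 and M genes 12 were higher in cluster DN. In DP-P2 141 of 151 cells (93.4%) had more S phase than G2 and M UMIs, and in DP-P3, whose 36 DN-labelled cells had medians of 6 and 14.5, just 1 did.

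**Figure D4:**
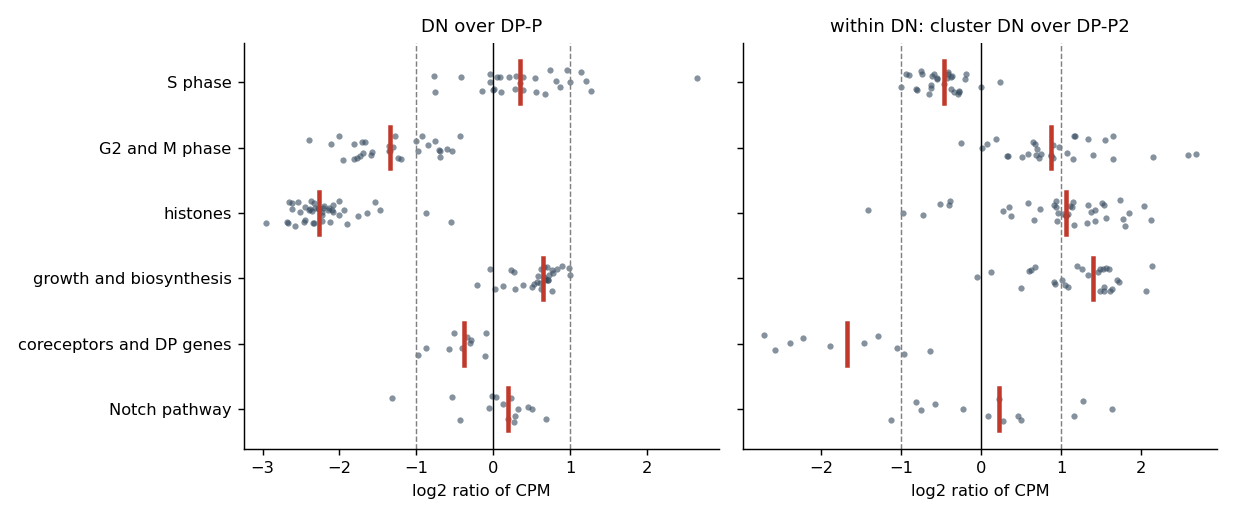
Log2 ratio of CPM for each tested gene of 5 lists and of the histone set, DN over DP-P on the left and, within the DN label, cluster DN over DP-P2 on the right. Red bars are medians and dashed lines mark 2-fold. Against DP-P the G2 and M genes and the histones lie to the left, and within the label the growth genes lie to the right and the coreceptor and DP genes to the left.

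Clustering the 390 cells alone gave 4 groups, which are described by number since no marker set names them. With the cell cycle lists and the histone genes left out there were 5 groups, with an adjusted Rand index of 0.366 to these 4. A change of resolution alone, from 0.6 to 1.0, gave 9 groups and an index of 0.479. The grouping thus moved with both choices, and which genes moved it was not tested. Group 1 (153 cells, 136 of them from DP-P2) had Cd4 at 397 CPM, Cd8a at 1260, Rag1 at 688 and Kit at 2.29, and its leading genes were Raet1ll1, Plcl1, Slco3a1, Slc7a11 and Gria3. Group 2 (86 cells, 73 from cluster DN) was led by histone genes, with H1f5 at 2317 CPM against 137 in the other DN-labelled cells. It also had the highest Kit (31.5 CPM, a UMI in 48.8% of cells) and Il7r (37.0 CPM) of the 4, with Il2ra at 4.62 CPM. Group 3 (81 cells, 75 from cluster DN) had the highest growth score, a median of 29 UMIs per cell, with Npm1 at 3152 CPM, Cd4 at 26.4 and Top2a at 111. Group 4 (70 cells, 36 from cluster DN and 31 from DP-P3) was led by the mitotic genes Ube2c, Cdc25b, Parpbp, Troap and Aspm, with Top2a at 1018 CPM and 14 G2 and M UMIs per cell. Il2ra was at most 5.95 CPM and Flt3 at most 0.458 CPM in any of the 4.

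In the section, 259463 bins out of 592087 with a label put DN first. Bins span 20 coordinate units, nominally 10 µm. A bin is a small region that can hold several cells or part of one, and the labels are the authors' decomposition of its transcripts (RCTD), so these are shares of bins and not of cells. There were 21.1 DN bins for each DP-P bin, whereas the suspension held 0.460 DN-labelled cells per DP-P cell. DP was first in 138034 bins, fewer than DN, whereas the suspension held 5202 DP cells and 390 DN-labelled cells. In the cortex DP was first in 25.7% of bins. Why the bins and the suspension differed was not tested. The DN share was 50.4% in the region named capsular (50.1 to 50.7), 47.6% in the cortex (47.4 to 47.7), 7.71% in mEFA (7.34 to 8.09) and 2.74% in mECA (2.58 to 2.90). Within the capsular and cortical regions it was 39.4% of bins at distance 0 from the capsule, 51.9% up to a nominal 25 µm, 52.2% from 25 to 50 µm, between 46.9% and 48.2% from 50 to 600 µm and 42.3% beyond. Double-negative cells are known to gather under the capsule. In segmented cell bins the share was 50.4% in the capsular region and 41.9% in the cortex. DN was the sole label of 65.7% of its bins. Where a second label was given it was a thymic epithelial type in 86.6%, cTEC alone in 50.9%. Bins with DN first had a median of 341 UMIs, against 267 for DP and 246 for DP-P, so that depth moved with the label. Among bins at or above the median UMIs the DN share was 63.4% in the capsular region and 56.5% in the cortex.

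**Figure D5:**
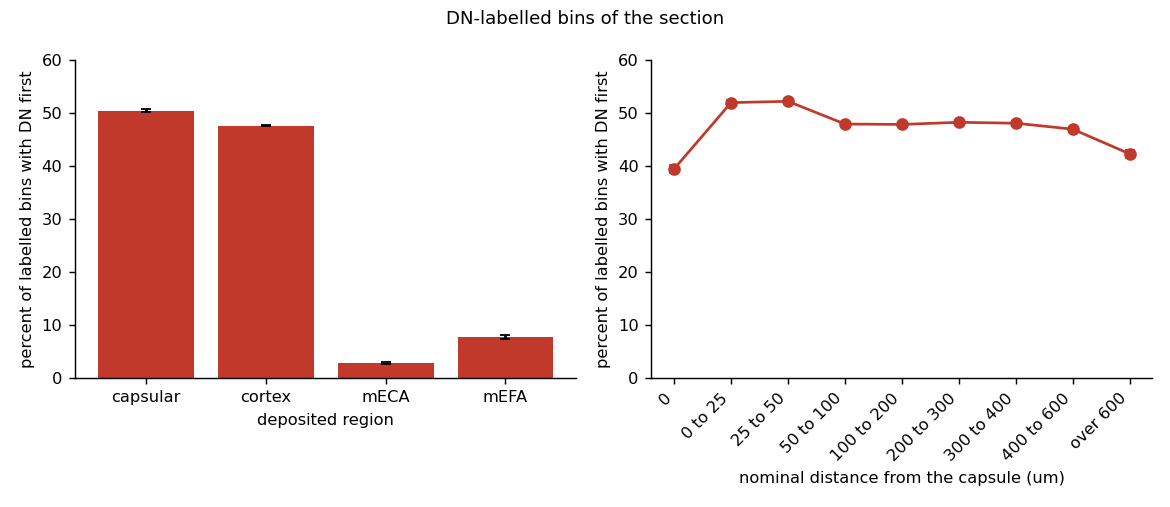
Percent of labelled bins whose first label is DN by deposited region (left) and by nominal distance from the capsule within the capsular and cortical regions (right), with exact binomial 95% intervals. The share is about 50.4% in the capsular region and 47.6% in the cortex, and low in mEFA and mECA. Over distance it changes little from 50 to 600 µm and is 42.3% beyond.

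The choice of label decided several of these values. With the first clusters alone in place of the final labels, DN became the 510 cells of cluster DN, gdT-labelled cells included, and DP-P the clusters DP-P1 to DP-P3, DP-P2 included. Then 854 genes were at least 2-fold higher than in DP-P and 534 lower, and the number tested with those labels is not given here. Ung was 2.07-fold higher and Cdc6 1.21-fold, and the ratio was 0.498 for Nusap1, 0.513 for Top2a, 0.427 for Mxd3 and 0.640 for Plk1. Over DP, Cd4 went to a ratio of 0.0469 from 0.111 and Il7r to 83.4 from 11.9.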

How the data were processed

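UMI counts per gene and barcode are whole numbers as deposited by the authors, made with Cell Ranger 8.0.0 on mRatBN7.2 per the submitters' processing notes, which also name Seurat 5.3.0. The deposited cell table gives labels and a mitochondrial percent, which the authors' values show to count the 2 mitochondrial ribosomal RNA genes. The authors' bin tables give counts, RCTD weights as a fraction and capsule distances. How labels were projected is not given in the sources used here. A cell's label was its projected label, otherwise its first cluster. UMIs were summed per label, and genes with at least 100 UMIs over both groups were called at 2-fold, with 3 UMIs as floor. CPM have exact Poisson, shares Clopper-Pearson and ratios conditional binomial 95% intervals. Cells were thinned to 2000 UMIs (seed 7). DN-labelled cells were clustered with scanpy 1.11.5 (Leiden). Named genes were list members with the most UMIs or largest ratios, the 10 leading genes per direction with a UMI in 25% of cells, and the leading genes per group. The members and lists were chosen with earlier results of these data known, and the histone set, the comparisons within cluster DN and within the DN label, and some named genes outside the rule after seeing values. No doublets were removed: Scrublet called 0 of 8546 cells, which is too few to be a working call. The fold rule was tested on simulated Poisson counts drawn from the DP-P profile with 3-fold changes. That simulation held no variation between cells, so it does not show how the rule behaves under such variation. Thinning was checked against expected counts in the DN-labelled cells. Samples had 1 library per group, and alternatives are given in the closing section.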

Additional observations from a re-analysis of the deposited data

How the results depend on the processing

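No paired analysis was possible because there was 1 thymocyte library. In all, 1499 values were recomputed. A reversal was defined only for the 118 gene ratios past 2-fold, recomputed 825 times, and 0 of these reversed. Of the same 825, 102 values moved by over 1.5 times, mostly where the first clusters alone gave the labels. With those labels the DN share of cells was 5.97%, and 854 genes were higher and 534 lower than in DP-P. At 1000 UMIs per cell, which lowers all such values by construction, the medians were 634.5, 658 and 684 genes in DN, DP-P and DP, 4.5 and 3 S phase UMIs in DN and DP-P, and 3, 10 and 0 G2 and M UMIs in DN, DP-P and DP. After thinning to 2000 UMIs 942 genes were higher than in DP and 43 higher than in DP-P, and the mean of the cells' CPM gave 288 higher than in DP-P. Thinning leaves fewer UMIs per gene, so fewer genes can reach the UMI minimum. The counts after thinning therefore do not show how many differences remain at equal depth. Why the mean of the cells' CPM gave 288 was not tested. A minimum of 30 UMIs gave 336 higher and 442 lower than in DP-P, and one of 300 UMIs gave 89 higher. At 3-fold, 1040 were higher and 1244 lower than in DP, and 20 higher and 116 lower than in DP-P. The 3-fold rule and the mean of the cells' CPM kept the 10244 genes tested against DP and 9774 against DP-P. With the first clusters, thinned counts or another minimum the number tested differs and is not given here. Those counts therefore cannot be read as shares of all genes. Clustering at resolution 1.0 gave 9 groups (adjusted Rand index 0.479 to the 4), and without the cell cycle lists and histone genes 5 (0.366). In the section, DN shares in the capsular region, cortex, mECA and mEFA were 52.5%, 49.9%, 6.33% and 12.5% for bins with 1 label, 63.4%, 56.5%, 2.50% and 6.86% for bins at or above the median UMIs, and 40.9%, 37.0%, 2.53% and 5.79% by summed weights. For segmented cell bins the share was 50.4% (capsular), 41.9% (cortex), 4.10% (mECA) and 7.202% (mEFA). The cause was not tested. Removing called doublets was not run because none was called. Leaving out the highest 6% of doublet scores was chosen after seeing the data. It moved Ccl4 over DP to 0.0172 and Tnfrsf9 over DP to 48.5. Leaving out the deepest 1% of cells of each label moved Il7r over DP to 23.1.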
